A study of Oryza sativa Japonica Group with 9 samples.

Results

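The comparison described here is the response of wild-type rice shoots to drought, read from RNA of the japonica cultivar Zhonghua 11 (ZH11). It sets 1 library of drought-stressed ZH11 seedlings against 1 library of unstressed ZH11 seedlings, 2 of the 6 RNA libraries and 2 of the 9 libraries of the series. Of the 55986 genes in the expression tables, 23089 had at least 10 reads in either ZH11 library, and all of these are described. For each gene the reads were expressed as CPM, reads scaled to a common library size, after TMM scaling of the library totals, a method that sets aside the genes with the most extreme ratios, and the log2 ratio of drought over normal was taken after adding 0.5 CPM to both values. A gene is called higher or lower in drought where this ratio is at least 2-fold. CPM is not corrected for gene length, so levels in CPM are compared between libraries and not between genes.

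The drought library came from seedlings at the 4-leaf stage that were kept under drought until every leaf had rolled, and the normal library from unstressed seedlings taken at the same time. Both were wild type for OsbZIP23, the transcription factor the series is about. Plants grew in July near Wuhan in a mixture of sand and paddy soil, with 14 h of sunlight and 10 h of darkness, and total RNA was taken from everything above the ground. The other drought and normal pairs used below for setting ZH11 beside them came from the osbzip23 mutant and from a line that overexpresses OsbZIP23, also in the ZH11 background and handled in the same way. How many plants went into a library, which promoter drives the overexpression and what lesion the mutant carries are not given in the sources used here.

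When a plant dries out, it makes the hormone abscisic acid (ABA) from carotenoids, with 9-cis-epoxycarotenoid dioxygenases (NCED) at the committed step. ABA-bound receptors block the clade A type 2C protein phosphatases, which otherwise hold the SnRK2 kinases inactive, and the released kinases phosphorylate bZIP factors that bind ABA-responsive elements. Well-known targets of these factors are dehydrins and other late embryogenesis abundant (LEA) proteins, hydrophilic proteins that accumulate in seeds and in drying leaves, while leaves under lasting drought also lose chlorophyll and photosynthetic capacity.

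Each condition is a single library, so there is no spread between replicates, nothing below was tested, and each difference is between these libraries and cannot be told apart from plant-to-plant or library-to-library variation. The intervals given with folds are exact 95% Clopper-Pearson intervals, which cover counting error only. The drought library held 13.5 M reads and the normal library 12.2 M, against 9.48 to 12.2 M in the other RNA libraries. Reads were found for 33054 genes in drought and 33596 in normal. The shoot label fitted most of the marker genes. Photosynthesis genes were among the most read in the normal library, and the root genes Lsi2, OsNRT2.1 and OsPT11 had no reads in either library. The silicon transporter Lsi1, also listed as a root gene, went the other way and was read, at 9.87 CPM in drought and 9.91 CPM in normal. The listed meristem genes OSH1 and OSH15 both stayed below 10 reads in each of these libraries, so meristem tissue was not shown by them. In whole shoots, fewer cells of a type and less RNA per cell cannot be told apart.

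The difference between the libraries was wide. In drought 5766 genes (25.0% of the 23089) were at least 2-fold higher and 6827 (29.6%) at least 2-fold lower, which left 10496 genes (45.5%) within 2-fold. At least 4-fold differences were found for 2715 genes higher and 2854 lower in drought, and at least 32-fold differences for 364 higher and 199 lower. Near-complete switches occurred both ways: 115 genes had at least 100 reads in drought and at most 1 in normal, and 98 had at most 1 read in drought and at least 100 in normal. The median log2 ratio over all genes was -0.15. The split between higher and lower depends on the scaling: with plain library totals 4568 genes were higher and 8429 lower in drought, and the median of all genes was -0.48, whereas with upper-quartile scaling 6945 were higher and 5668 lower and the median was 0.11. Genes just inside the read limit, with 10 to 10.5 reads in the better-read library, numbered 369, of which 20.1% were higher and 20.1% lower in drought, with a median log2 ratio of -0.05. Those just outside it, with 9 to 9.5 reads, numbered 411, of which 16.3% were higher and 15.3% lower, with a median of -0.08.

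The direction varied with expression level. When genes were ranked by mean CPM and cut into 10 classes of equal size, the highest class held those above 77.0 CPM, of which 50.7% were higher and 16.6% lower in drought, with a median log2 ratio of 1.03. In class 5 from the bottom, 16.1% were higher and 37.0% lower, with a median of -0.52. Shares of gene lists given below are set beside those of all genes and not beside genes of like level. Whether a list of well-read genes exceeds other well-read genes was therefore not tested. The few most-read genes held a smaller share of reads in drought: leaving aside the 4 most-read genes, which have no description and differed by 1.10- to 1.36-fold, the 10 most-read genes held 5.68% of reads in drought and 9.01% in normal, and with those 4 included 535 genes in drought against 420 in normal held 50% of all reads. Further down the ranking the difference was gone, and the 1000 most-read genes without those 4 held 53.4% of reads in drought and 52.5% in normal. Over the chromosomes the share of higher genes ran between 21.7% and 26.9% and the share of lower genes between 27.2% on chromosome 3 and 33.6% on chromosome 11.

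**Figure D1:**
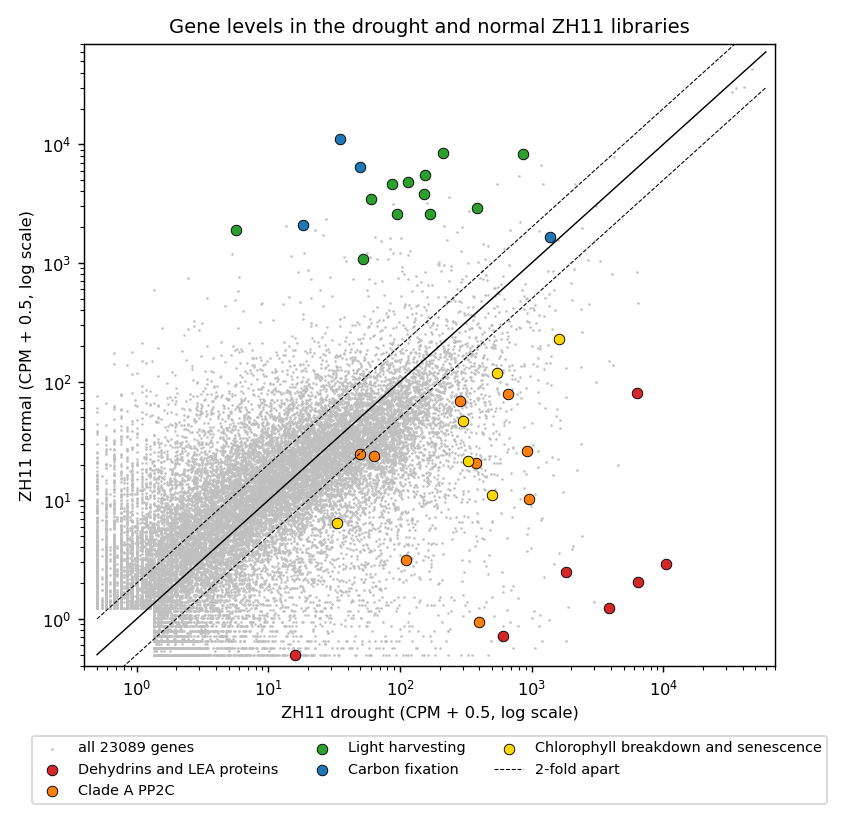
Level of each of the 23089 genes in the drought library (horizontal axis, CPM + 0.5, log scale) and in the normal ZH11 library (vertical axis, CPM + 0.5, log scale), each point 1 gene, with genes of chosen lists in colour. Dehydrin and LEA genes lie at the lower right, far above their normal level in drought, and light-harvesting genes at the upper left.

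The genes of ABA synthesis differed in both directions. Of 8 listed genes 7 passed the read limit, of which 4 (57.1%) were higher and 2 (28.6%) lower in drought. Of all genes 25.0% were higher and 29.6% lower, so the lower share is near that of all genes. Among the NCED genes, OsNCED4 stood at 995 CPM in drought and 3.45 CPM in normal, 288-fold higher (interval 217 to 393). OsNCED3 stood at 191 CPM in drought and 8.15 CPM in normal, 23.5-fold higher (19.4 to 28.7), and OsNCED5 at 35 CPM and 12.8 CPM. OsNCED1 was at the opposite end, with 4.79 CPM in drought and 1181 CPM in normal, 247-fold lower (190 to 327). The most-read member of the family thus differed between the libraries: OsNCED1 had the most reads of the NCED genes in normal shoots and OsNCED4 in drought. The summed level of the list was alike, 1524 CPM in drought and 1694 CPM in normal. OsNCED1 alone made up 1181 CPM of the normal sum and OsNCED4 995 CPM of the drought sum. The authors describe OsNCED1 as nine-cis-epoxycarotenoid dioxygenase 4, and its part in ABA synthesis was not examined. The sum is therefore no measure of ABA synthesis. Of the other steps, OsZEP, the zeaxanthin epoxidase upstream of the NCEDs, stood at 280 CPM in drought and 478 CPM in normal, within 2-fold. OsABA2, the dehydrogenase that makes abscisic aldehyde, was lower at 1.62 CPM in drought and 6.83 CPM in normal, and OsAAO3, the oxidase of the last step, higher at 16 CPM in drought and 3.89 CPM in normal.

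The 3 ABA 8'-hydroxylases, which break ABA down, each gave a different picture. OsABA8ox1 was higher, with 142 CPM in drought and 31.2 CPM in normal, 4.55-fold (4.08 to 5.07). OsABA8ox2 stood at 14.0 CPM in drought and 13.9 CPM in normal. OsABA8ox3 was lower, with 2.31 CPM in drought and 23.9 CPM in normal, 10.3-fold (6.97 to 15.9). OsABA8ox1 had the most reads of the 3 in both libraries.

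In signalling, all 9 listed clade A PP2C genes were at least 2-fold higher in drought, with a median log2 ratio of 4.18, and their summed level was 3823 CPM in drought and 252 CPM in normal. The largest ratio was that of OsPP2C51, at 400 CPM in drought and 0.44 CPM in normal, 908-fold higher (417 to 2477). OsPP2C68 stood at 954 CPM in drought and 9.84 CPM in normal, 97.0-fold higher, and OsPP2C30 at 927 CPM and 25.6 CPM, 36.2-fold higher. At the other end OsPP2C08 lay at the 2-fold line, with 49.1 CPM in drought and 24.3 CPM in normal, and under library-total scaling it was not counted, which left 8 of 9. LOC_Os03g18850, described as PYR1-like 2, was also far higher, with 294 CPM in drought and 2.64 CPM in normal, 111-fold (80.1 to 159). That description is the only ground for linking it to ABA receptors, and whether it encodes one was not examined.

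Of the 10 SnRK2 kinases, SAPK1 to SAPK10, 5 were higher and 1 lower in drought. SAPK4 had 194 CPM in drought and 13.5 CPM in normal, 14.4-fold higher (12.4 to 16.8), and SAPK1 had 271 CPM and 20.5 CPM, 13.2-fold higher (11.7 to 15). SAPK6, SAPK9 and SAPK10 were 4.09-, 5.57- and 3.98-fold higher. SAPK2 had the same level in both libraries, 127 CPM in drought and 127 CPM in normal, and SAPK7 was lower at 2.05 CPM in drought and 12.0 CPM in normal. Ratios of SAPK3, SAPK5 and SAPK8 lay within 2-fold.

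Among the 9 bZIP factors that bind ABA-responsive elements, 7 (77.8%) were higher and 1 (11.1%) lower in drought, against 25.0% and 29.6% of all genes. Their median log2 ratio was 2.74. OsbZIP23 itself stood at 479 CPM in drought and 32.5 CPM in normal, 14.8-fold higher (13.4 to 16.3). OsbZIP12 stood at 308 CPM and 15.3 CPM, 20.1-fold higher (17.4 to 23.2), while OsbZIP46 with 36.8 and 5.07 CPM, TRAB1 with 67.6 and 14.3 CPM, OsbZIP40 with 36.2 and 3.82 CPM and OsbZIP72 with 69.3 and 31.8 CPM were between 2.18- and 9.47-fold higher. OsABI5 was read 118.5 times in drought and not at all in normal, which makes it at least 46.0-fold higher when the normal library is set at the floor of 3 reads. OsbZIP62 alone was lower, with 0.427 CPM in drought and 6.2 CPM in normal, and OsbZIP42 was level at 14.2 CPM and 13.7 CPM.

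Stress-linked transcription factors outside the bZIP family were mostly higher, 11 of the 15 listed, with 3 lower. OsHOX24, a homeodomain-leucine zipper factor, stood at 1007 CPM in drought and 0.514 CPM in normal, 1959-fold higher (951 to 4875). The zinc finger factor ZFP182 stood at 683 CPM in drought and 0.44 CPM in normal, 1550-fold higher (712 to 4225). The NAC factors SNAC1 and OsNAC6, both known for raising stress tolerance when overexpressed in rice, reached 1653 CPM and 3898 CPM in drought, against 40.5 CPM and 149 CPM in normal. OsHOX22 had 697 CPM in drought and 16.4 CPM in normal and OsNAC5 573 CPM and 21.6 CPM. The DREB factors, which bind dehydration-responsive elements, were mixed: OsDREB1C was 129-fold higher with 94.4 CPM in drought and 0.734 CPM in normal, OsDREB2A was 5.26-fold higher, OsDREB1A had 5.34 CPM and 3.89 CPM, and OsDREB1B was lower with 0.94 CPM and 2.64 CPM. DST, a zinc finger factor known in rice as a negative regulator of stomatal closure, was 91.8-fold lower (44.3 to 229), with 0.598 CPM in drought and 54.9 CPM in normal. OsWRKY45, a factor of the salicylic acid defence route, was 15.8-fold lower, with 8.12 CPM in drought and 128 CPM in normal.

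Dehydrin and LEA genes held the 3 highest log2 ratios, with 0.5 CPM added, among genes averaging at least 20 CPM. All 7 genes of the fixed list were higher, with a median log2 ratio of 9.70 and a summed level of 29430 CPM in drought and 87.3 CPM in normal. Rab16A, a dehydrin, stood at 10479 CPM in drought and 2.39 CPM in normal, 4392-fold higher (3080 to 6284). Rab16B had 3868 CPM and 0.734 CPM, Rab16C 1826 CPM and 1.98 CPM, and Rab16D 601 CPM and 0.22 CPM. OsLEA3-1, a LEA protein of the third group, reached 6370 CPM in drought with 1.54 CPM in normal, and OsDip1 6272 CPM with 80.4 CPM. OsEm1, a LEA gene of seed embryos, was much rarer, at 15.5 CPM in drought and no reads in normal, at least 70.2-fold higher. Per length, on the authors' FPKM scale, Rab16A was at 7381 in drought and 2.15 in normal, above OsLEA3-1 at 5616 in drought and 1.65 in normal. The Rab16 genes are similar in sequence and reads may have been shared among them, so their separate levels are uncertain while their sum is less so.

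A wider set taken from the descriptions gave the same direction for most members. Of 25 measured genes described as LEA or dehydrin proteins, 21 (84.0%) were higher and 1 (4.0%) lower in drought, with a median log2 ratio of 7.25. Of all genes 25.0% were higher and 29.6% lower. The dehydrin LOC_Os11g26570 had 2975 CPM in drought and 0.881 CPM in normal. The exception was LOC_Os01g73730, of the LEA-related group, with 2.74 CPM in drought and 8.0 CPM in normal, and LOC_Os05g50710 stayed within 2-fold at 99.5 CPM and 133 CPM.

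**Figure D2:**
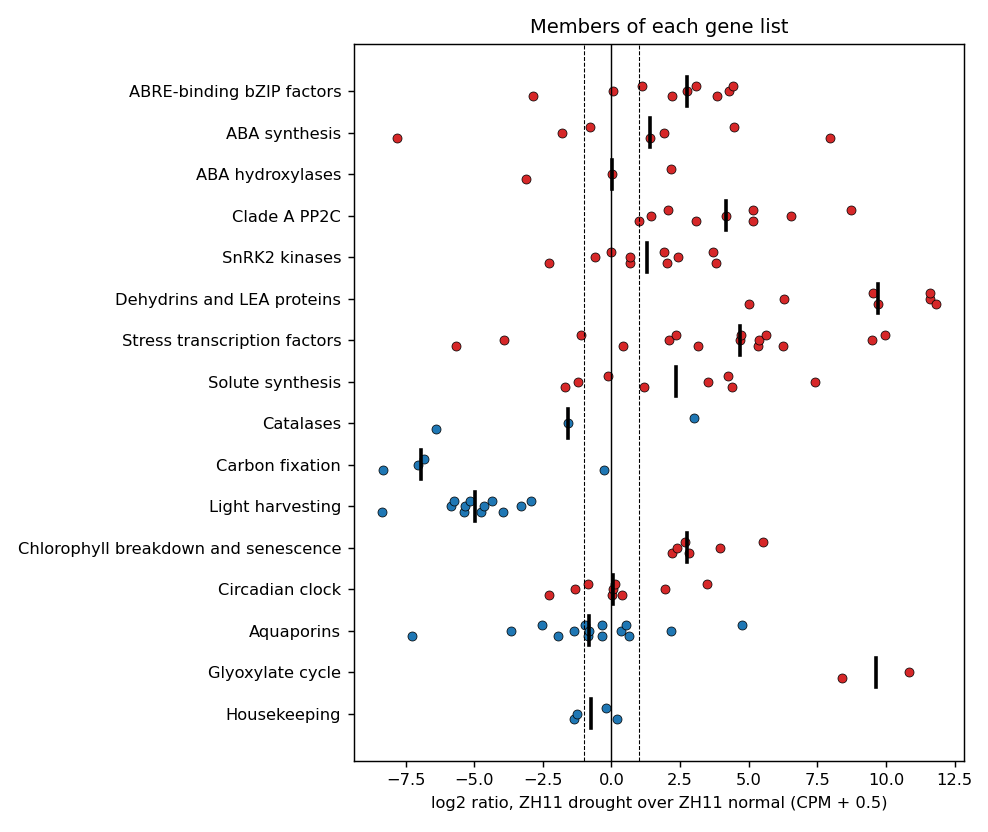
Log2 ratio of drought over normal in ZH11 (horizontal axis) for every measured member of each fixed gene list (1 line per list, each point 1 gene, thick bars the list medians, dashed lines 2-fold, red for a median of at least 0 and blue below it). Dehydrin and LEA genes lie between 5.0 and 11.83, all 12 measured light-harvesting genes lie below -2.90, and the ABA synthesis list spreads between -7.80 and 7.98.

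Other genes with the largest ratios were also little read in normal shoots. LOC_Os03g04080, described as transcription activator-related, had 1206 CPM in drought and 0.147 CPM in normal, and LOC_Os06g46740, an early nodulin-like protein, 1879 CPM and 0.771 CPM. LOC_Os10g36180, described as the cold-linked protein CAP160, had 717 CPM in drought and a single read in normal, a ratio of 9772 with an interval of 1753 to 386030. LOC_Os02g26720, an inositol phosphate kinase, had 469 CPM in drought and no reads in normal, at least 2131-fold higher. LOC_Os11g07911, at 1836 CPM and 0.147 CPM, has no description. By absolute gain, genes that were already well read in normal shoots came in too: the thioredoxin LOC_Os07g08840 had 6379 CPM in drought and 461 CPM in normal, the metallothionein LOC_Os01g05650 6293 CPM and 834 CPM, and the polyubiquitin LOC_Os02g06640 4101 CPM and 799 CPM. LOC_Os07g10840, described as seed imbibition 2, a family of enzymes of raffinose metabolism, had 4511 CPM in drought and 19.5 CPM in normal, 232-fold higher (206 to 263).

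**Figure D3:**
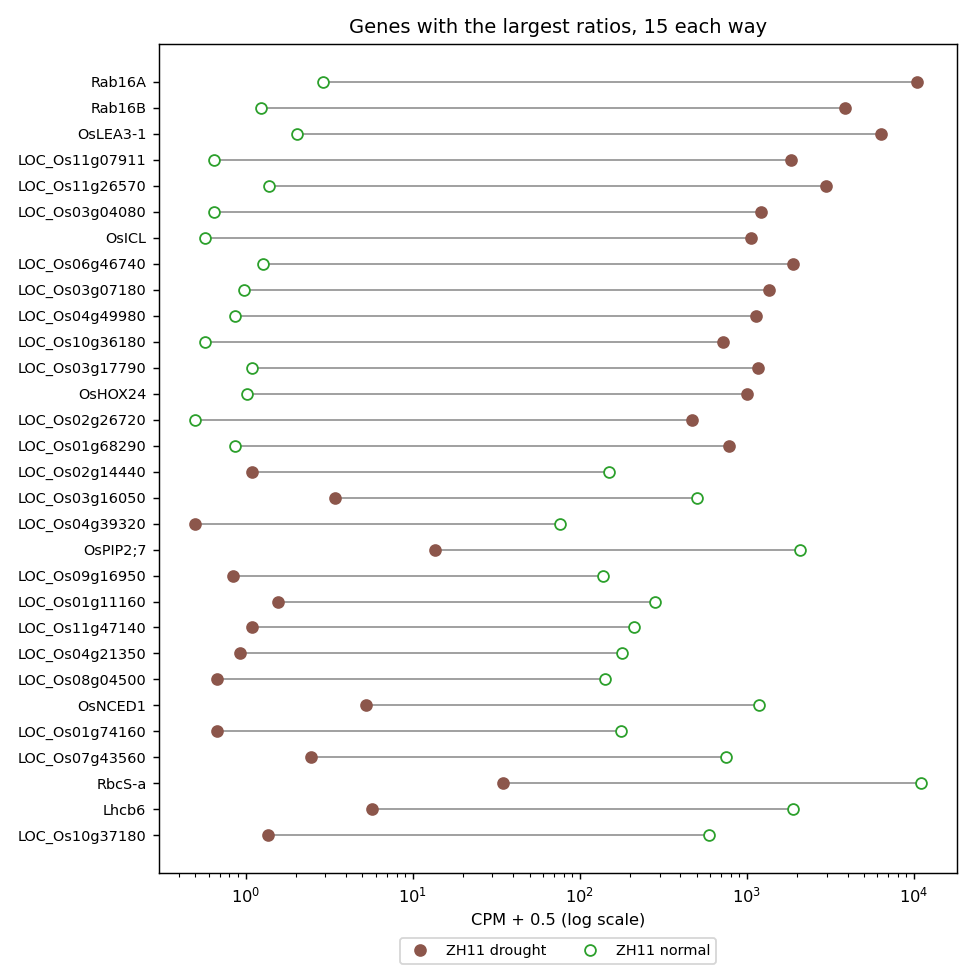
CPM + 0.5 (log scale, horizontal axis) in the drought (filled circles) and the normal (open circles) ZH11 library for the 15 genes with the largest ratio each way among those averaging at least 20 CPM. Of the genes higher in drought, the normal library is below 3 CPM throughout, and of those lower in drought, the drought library is below 35 CPM throughout.

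Among genes for protective solutes, of 9 listed, 8 were measured, 5 (62.5%) higher and 2 (25.0%) lower in drought. The lower share is near the 29.6% of all genes and the higher share is above their 25.0%. OsGolS2, a galactinol synthase that starts raffinose synthesis, had 1205 CPM in drought and 6.53 CPM in normal, 184-fold higher (150 to 230), and OsGolS1 had 262 CPM and 13.4 CPM. For proline, the synthesis genes OsP5CS1 and OsP5CS2 had 332 CPM and 126 CPM in drought against 28.3 CPM and 5.47 CPM in normal, while OsProDH, which degrades proline, had 10.1 CPM in drought and 33.7 CPM in normal. Trehalose genes differed less: OsTPP2 was 2.53-fold higher (1.65 to 4.0), OsTPP1 lower with a log2 ratio of -1.22, and OsTPS1 within 2-fold at -0.12.

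Of 33 measured genes with amylase or starch descriptions 15 (45.5%) were higher and 7 (21.2%) lower, against 25.0% and 29.6% of all genes, and 3 beta-amylases, which release maltose from starch, led them: LOC_Os10g41550 with 498 CPM in drought and 6.13 CPM in normal, LOC_Os03g22790 with 375 CPM and 4.52 CPM, and LOC_Os03g04770 with 1635 CPM and 46.6 CPM. A starch synthase, LOC_Os02g51070, was 18.2-fold lower (14.1 to 24.0), at 5.13 CPM in drought and 93.5 CPM in normal. Of 25 genes of sucrose metabolism and sugar transport 11 (44.0%) were higher and 5 lower; the sucrose synthase LOC_Os03g22120 had 1537 CPM in drought and 50.9 CPM in normal, and the sucrose-proton symporter LOC_Os03g07480 152 CPM and 26.4 CPM. Both enzymes peculiar to the glyoxylate cycle, which turns fatty acids into sugars in germinating seeds, were nearly unread in normal shoots. The isocitrate lyase OsICL had 1062 CPM in drought and 0.0734 CPM in normal, where 0.0734 CPM is 1 read, so that its ratio of 14470 has an interval of 2597 to 571595. The malate synthase OsMS had 433 CPM in drought and 0.771 CPM in normal, 561-fold higher (299 to 1074). Peroxisomal beta-oxidation, which feeds that cycle, had 7 of 14 measured genes higher and 1 lower, among them the acyl-CoA oxidase LOC_Os05g07090 with 159 CPM and 12.8 CPM. Fatty acid elongases, which make wax precursors, had 10 of 17 (58.8%) higher and 2 (11.8%) lower, with LOC_Os05g49900 at 124 CPM in drought and 3.67 CPM in normal.

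Photosynthesis genes were the main losses. The Rubisco small subunit genes stood at 34.4 CPM (RbcS-a), 17.7 CPM (RbcS-b) and 48.9 CPM (RbcS-c) in drought, against 11031, 2069 and 6488 CPM in normal. They were 321-fold (290 to 354), 117-fold (102 to 134) and 133-fold (122 to 144) lower, although the copies are near-identical and the split among them is uncertain. Rca, the Rubisco activase, was different: with 1369 CPM in drought and 1656 CPM in normal it stayed within 2-fold. All 12 measured light-harvesting genes of 13 listed were lower, with a summed level of 2332 CPM in drought and 50098 CPM in normal, 21.5-fold lower. Lhcb6, a minor antenna protein, had the lowest ratio of them, with 5.21 CPM in drought and 1893 CPM in normal, 363-fold lower (283 to 475). The least affected was Lhca3 of photosystem I, with 382 CPM and 2919 CPM, 7.63-fold lower (7.4 to 7.87). PsbS1, needed for the dissipation of excess light energy, had 51.7 CPM in drought and 1074 CPM in normal.

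Beyond the antenna, 59 of 83 measured genes with a photosystem description (71.1%) were lower and 8 (9.64%) higher in drought. Of all genes 29.6% were lower and 25.0% higher. The median log2 ratio of the list was -1.89. The extrinsic subunits PsbO (LOC_Os01g31690) and PsbR (LOC_Os08g10020) had 550 CPM and 1216 CPM in drought against 4660 CPM and 4599 CPM in normal. Among the 8 that were higher, a second PsbR-type gene, LOC_Os07g05365, had 42.1 CPM in drought and 0.0734 CPM in normal, 1 read, and LOC_Os01g70820 of the PsbP family 48.9 CPM and 3.23 CPM. LOC_Os08g35420, described like the plastid reaction centre gene psbA, had 645 CPM in drought and 228 CPM in normal; it may be a nuclear copy that shares reads with plastid RNA. In chlorophyll synthesis and thylakoid proteins 14 of 17 measured genes (82.4%) were lower and 1 (5.88%) higher. LOC_Os04g58200, a protochlorophyllide oxidoreductase, had 2.48 CPM in drought and 273 CPM in normal, 110-fold lower (76.7 to 165), and the thylakoid lumen protein LOC_Os05g33280 5.26 CPM and 188 CPM. Carbonic anhydrase LOC_Os01g45274, an enzyme that interconverts carbon dioxide and bicarbonate, had 236 CPM in drought and 3623 CPM in normal, 15.3-fold lower (14.8 to 15.9).

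Chlorophyll breakdown ran the other way, with all 6 listed genes higher in drought and a median log2 ratio of 2.75. SGR, the stay-green protein that removes magnesium from chlorophyll, had 500 CPM in drought and 10.5 CPM in normal, 47.7-fold higher (40.4 to 56.7). The chlorophyll b reductase genes NYC1 and NOL had 1613 CPM and 32.9 CPM in drought against 229 CPM and 5.87 CPM in normal. OsNAP, a NAC factor of leaf senescence, had 331 CPM in drought and 21.0 CPM in normal, and NYC3 and OsPAO were 4.63- and 6.51-fold higher. Autophagy genes, which serve the recycling of cell contents, were higher in 12 of 17 cases (70.6%) and lower in 2 (11.8%). Of all genes 25.0% were higher and 29.6% lower. The ATG18-type gene LOC_Os05g07710 had 39.8 CPM in drought and 0.587 CPM in normal and the ATG9-type gene LOC_Os03g14380 204 CPM and 29.9 CPM. The ATG6-type gene LOC_Os01g48920 had 4.49 CPM in drought and 14.1 CPM in normal. Of 41 measured proteasome genes 7 (17.1%) were higher and 0 lower, both below the shares of all genes. The median of that list, 0.33, lay between -0.03 and 0.62 over the scalings, so it carries no direction.

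The 3 catalases, which remove hydrogen peroxide, differed in direction. CatA had 22.2 CPM in drought and 1909 CPM in normal, 85.9-fold lower (76.0 to 97.4), and CatC, the catalase of leaf peroxisomes, 468 CPM and 1399 CPM, 2.99-fold lower. CatB had 1100 CPM in drought and 135 CPM in normal, 8.16-fold higher (7.77 to 8.58). Among chaperones, which hold damaged proteins in solution, 60 of 132 measured genes (45.5%) were higher and 18 (13.6%) lower in drought, against 25.0% and 29.6% of all genes. Within them 19 of 33 small heat shock proteins of the HSP20 type (57.6%) were higher and 5 (15.2%) lower. LOC_Os01g04370 had 137 CPM in drought and 0.294 CPM in normal, LOC_Os02g54140 244 CPM and 1.03 CPM, and LOC_Os03g16030 477 CPM and 2.94 CPM.

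Of 16 aquaporins listed, which are water channels, 15 were measured, of which 2 (13.3%) were higher and 5 (33.3%) lower in drought. The lower share is near the 29.6% of all genes and the higher share is below their 25.0%. With library-total scaling 8 were lower. OsPIP2;7, a plasma membrane aquaporin, had the lowest ratio, with 13.1 CPM in drought and 2064 CPM in normal, 158-fold lower (135 to 186), and it held over 50% of the list's reads in normal shoots. OsPIP2;2 had 6.50 CPM and 88.3 CPM, and OsPIP1;3 8.29 CPM and 50.9 CPM. Another plasma membrane member, OsPIP2;1, stayed within 2-fold at 160 CPM in drought and 103 CPM in normal. Both genes that were higher belong to the TIP3 group of tonoplast channels known from seeds: OsTIP3;1 had 15 CPM in drought and a single read in normal, a ratio of 204 with an interval of 36.1 to 8093.

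Circadian clock genes showed no common direction, with 2 of 9 (22.2%) higher and 2 (22.2%) lower, against 25.0% and 29.6% of all genes. Their median log2 ratio was 0.05, and its sign changed with the scaling. OsGI stood at 1595 CPM in drought and 1572 CPM in normal. The morning gene OsLHY had 160 CPM in drought and 13.9 CPM in normal, 11.5-fold higher (9.90 to 13.4), and the evening gene OsLUX 82.7 CPM and 21.2 CPM, 3.90-fold higher. OsPRR1 with 36.5 CPM and 92.4 CPM and OsPRR37 with 28.0 CPM and 139 CPM were lower. Both libraries were sampled at the same time, per the labels, and the hour is not given. Common reference genes were not all level: ACT1 had 70.7 CPM in drought and 61.0 CPM in normal and eEF1a 580 CPM and 666 CPM, while UBQ5 had 61.0 CPM and 148 CPM and GAPDH 83.0 CPM and 213 CPM. Among the 300 most-read genes the smallest ratios included a protein disulfide isomerase-like gene, LOC_Os11g09280, at 527 CPM in drought and 529 CPM in normal.

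Genes for ribosomal proteins were more often lower than higher. Of 351 measured genes described as ribosomal proteins 178 (50.7%) were lower and 12 (3.42%) higher in drought, against 29.6% and 25.0% of all genes, with a median log2 ratio of -1.03, or between -1.38 and -0.74 over the scalings, and a summed level of 9057 CPM in drought and 15589 CPM in normal. LOC_Os02g43600, described as an L19 protein, had 5.47 CPM in drought and 59.9 CPM in normal, and LOC_Os03g17580, an L10 protein, 8.25 CPM and 85.9 CPM. The 12 higher ones included LOC_Os01g59950, an L34e protein, with 62.2 CPM in drought and 5.29 CPM in normal. The list was not divided into plastid and cytosolic proteins. In the mutant pair 220 of the same genes were lower and 20 higher, and in the overexpressor pair 45 were lower and 10 higher. Histone genes of ZH11, by contrast, were mostly within 2-fold, with 5 of 39 (12.8%) higher and 3 (7.69%) lower, both below the shares of all genes.

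By number of members, genes of the growing cell wall were more often lower than higher. Expansins, which loosen walls, had 10 of 16 measured members lower and 2 higher, and xyloglucan endotransglucosylases 9 of 16 lower and 4 higher. Cellulose synthases and their relatives had 14 of 26 lower and 3 higher. Between 53.8% and 62.5% of each list was thus lower, against 29.6% of all genes, and between 11.5% and 25.0% higher, against 25.0%. The summed levels went both ways. Expansins had 121 CPM in drought and 94.3 CPM in normal, xyloglucan genes 118 CPM and 138 CPM, and cellulose synthases 473 CPM and 744 CPM. The cellulose synthase LOC_Os05g08370 had 10.9 CPM in drought and 123 CPM in normal, and LOC_Os08g06380 of the D group 2.39 CPM and 57.6 CPM. Against the rest, the expansin-like gene LOC_Os10g39640 had 55.5 CPM in drought and 3.71 CPM in normal. Many members of the expansin and xyloglucan lists had few reads, and where 10 reads were required in both libraries, which removes members nearly silent in drought, 5 of the 16 expansins and 6 of the 16 xyloglucan genes were left and the medians were 0.52 and 0.61 instead of -1.29 and -1.27.

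Surveillance and defence genes were another large group with low values. Of 291 measured NB-ARC disease resistance genes, whose products detect pathogens inside the cell, 158 (54.3%) were lower and 31 (10.7%) higher in drought, against 29.6% and 25.0% of all genes. Receptor-like kinases had 79 of 143 (55.2%) lower and 26 (18.2%) higher, and lectin kinases 55 of 109 (50.5%) lower and 15 (13.8%) higher. Single genes lost nearly all reads: the cysteine-rich receptor-like kinase LOC_Os07g43560 had 1.97 CPM in drought and 745 CPM in normal, 379-fold lower (253 to 598), and the wall-associated kinase LOC_Os11g47140 was 350-fold lower (170 to 871). Among terpene synthases, some of which make volatile or antimicrobial terpenes, 18 of 22 (81.8%) were lower and 2 (9.09%) higher. LOC_Os08g04500 had 0.171 CPM in drought, 2 reads, and 141 CPM in normal, while LOC_Os04g27670 had 727 CPM in drought and 1.39 CPM in normal. Peroxidases had 33 of 65 (50.8%) lower and 17 (26.2%) higher, and cytochrome P450 genes 89 of 202 (44.1%) lower and 54 (26.7%) higher, so that their higher shares were near the 25.0% of all genes. Other defence-type genes were higher, among them the chitinase and pathogenesis-related arrays given with the neighbouring loci.

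In hormone routes outside ABA, jasmonate genes were split 9 higher and 9 lower of 25 measured, 36.0% each way against 25.0% and 29.6% of all genes. The repressor genes of the JAZ type LOC_Os03g08320 and LOC_Os10g25290 had 390 CPM each in drought, against 6.09 CPM and 17.0 CPM in normal, while the lipoxygenase LOC_Os12g37260, of the pathway's first step, had 65.9 CPM and 1072 CPM, 16.3-fold lower (15.1 to 17.5). Auxin genes had 15 of 70 higher and 20 lower, shares of 21.4% and 28.6% that are near those of all genes, and LOC_Os06g09660, described as an auxin-responsive factor of the B3 family, had 213 CPM in drought and 3.05 CPM in normal. Ethylene response factors had 6 of 11 (54.5%) higher and 3 (27.3%) lower, the lower share near that of all genes. In some of the larger transcription factor families the higher share lay above the 25.0% of all genes. Higher were 33 of 74 NAC (44.6%), 26 of 69 WRKY (37.7%), 40 of 91 MYB (44.0%) and 23 of 49 bZIP genes (46.9%). Lower were 20 NAC (27.0%), 15 WRKY (21.7%), 24 MYB (26.4%) and 13 bZIP genes (26.5%), each share at or below the 29.6% of all genes. Homeobox genes had 41 of 124 (33.1%) higher and 34 (27.4%) lower. Their median log2 ratio was 0.06, and its sign changed with the scaling. C2H2 zinc finger genes had 12 of 49 (24.5%) higher, near the share of all genes, and 11 (22.4%) lower.

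**Figure D4:**
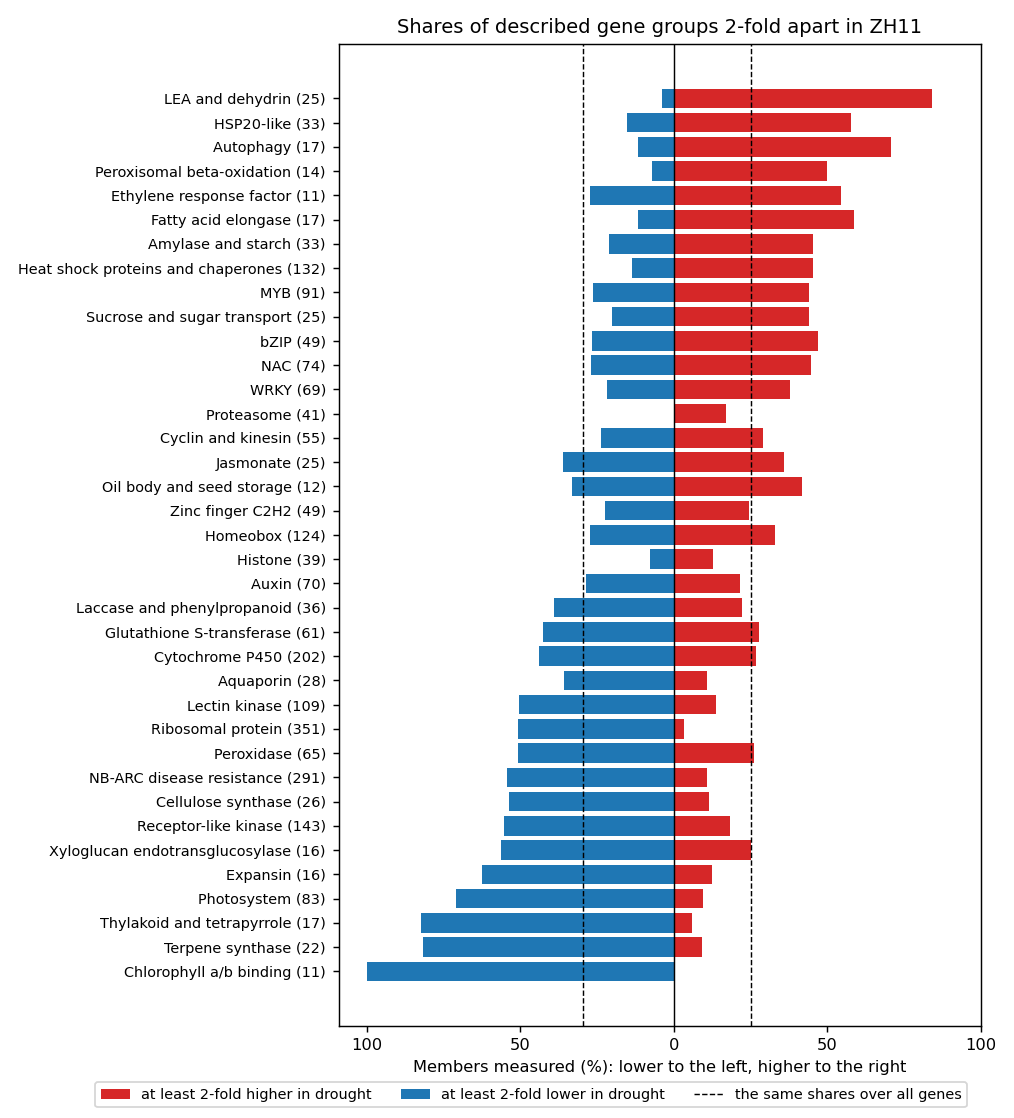
Share of the measured members of each described gene group that was at least 2-fold higher (bars to the right, %) or at least 2-fold lower (bars to the left, %) in ZH11 drought, with the shares over all 23089 genes (25.0% and 29.6%) as lines. LEA and dehydrin, autophagy and elongase genes extend farthest to the right and chlorophyll a/b binding, thylakoid and terpene synthase genes farthest to the left.

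A small part of the genes stood in runs of neighbours with the same direction. Counting runs of at least 4 measured loci in the order of their names, all at least 4-fold apart the same way, 26 runs with 108 genes were higher and 33 runs with 161 genes lower in drought. They took in 108 of the 2715 genes at least 4-fold higher and 161 of the 2854 at least 4-fold lower, and the number of runs to be met by chance was not computed. The longest higher run had 6 genes and the longest lower run 10. In 5 of the higher runs and 13 of the lower ones at least 3 genes shared a description, so many are arrays of related copies, whose reads may have been shared between them.

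Among the higher runs, the 4 Rab16 genes LOC_Os11g26750 to LOC_Os11g26790 on chromosome 11 together had 16773 CPM in drought and 5.32 CPM in normal. On chromosome 3, 4 germin-like genes from LOC_Os03g48750 to LOC_Os03g48780 had 1806 CPM and 12.3 CPM. A chromosome 1 run, LOC_Os01g50370 to LOC_Os01g50450, held 4 genes described as MAP kinase kinase kinases and had 550 CPM in drought and 23.4 CPM in normal. Defence-type arrays were found here too: 5 chitinase A genes from LOC_Os11g47500 to LOC_Os11g47600 had 337 CPM in drought and 3.56 CPM in normal, and the run of LOC_Os11g37950 to LOC_Os11g37980, with 3 genes for pathogenesis-related protein 4, 553 CPM and 7.30 CPM.

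The longest lower run, 10 genes from LOC_Os01g02730 to LOC_Os01g02840 on chromosome 1 of which 4 are described as PR5-like receptor kinases and 5 as members of the protein kinase superfamily, had 1.41 CPM in drought and 173 CPM in normal. Close to it, 6 genes from LOC_Os01g02470 to LOC_Os01g02570 had 1.28 CPM and 87.3 CPM. On chromosome 7, 6 peroxidase genes from LOC_Os07g47990 to LOC_Os07g48050 had 3.93 CPM in drought and 261 CPM in normal, and a run of 9 from LOC_Os07g03849 to LOC_Os07g03960, of which 6 are described as lectin kinases, 18.8 CPM and 175 CPM. On chromosome 11, 8 genes from LOC_Os11g40810 to LOC_Os11g41100, in part leucine-rich repeat kinases, had 1.11 CPM and 97.9 CPM. The chromosome 4 run LOC_Os04g09900 to LOC_Os04g10160, with terpenoid cyclases, cytochrome P450 genes and dehydrogenases side by side as in a diterpenoid cluster, had 1.28 CPM in drought and 82.0 CPM in normal. A pair of runs, LOC_Os10g21328 to LOC_Os10g21346 and LOC_Os01g57946 to LOC_Os01g57958, carry plastid-type ribosomal and RNA polymerase descriptions and had 14.0 CPM and 20.3 CPM in drought against 91.0 CPM and 100 CPM in normal.

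The ZH11 pattern was set beside the other genotypes' own drought and normal pairs, which share no library with it. In the mutant 26.1% of the same genes were at least 2-fold higher and 30.9% lower in drought, and in the overexpressor 19.1% were higher and 19.6% lower. Of the genes higher in ZH11, 85.2% were also at least 2-fold higher in the mutant and 66.6% in the overexpressor, and of those lower in ZH11, 80.6% and 58.3% were also lower there. Of the genes at least 4-fold higher in ZH11 the shares were 97.5% and 91.6%, and of those at least 4-fold lower 94.3% and 86.5%. Opposite 2-fold differences were rare: among genes higher in ZH11 they numbered 11 in the mutant and 11 in the overexpressor, and among genes lower in ZH11 26 and 22. Over the genes 2-fold apart in ZH11 the median size of the log2 ratio was 1.85 for ZH11, 1.92 for mutant and 1.28 for overexpressing plants. Across the 23089 genes, which are not independent, the log2 ratios of ZH11 had a Pearson correlation of 0.927 with those of the mutant and 0.910 with those of the overexpressor. Because ZH11 was the genotype in which the genes were picked, these shares describe agreement and do not rank the genotypes.

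**Figure D5:**
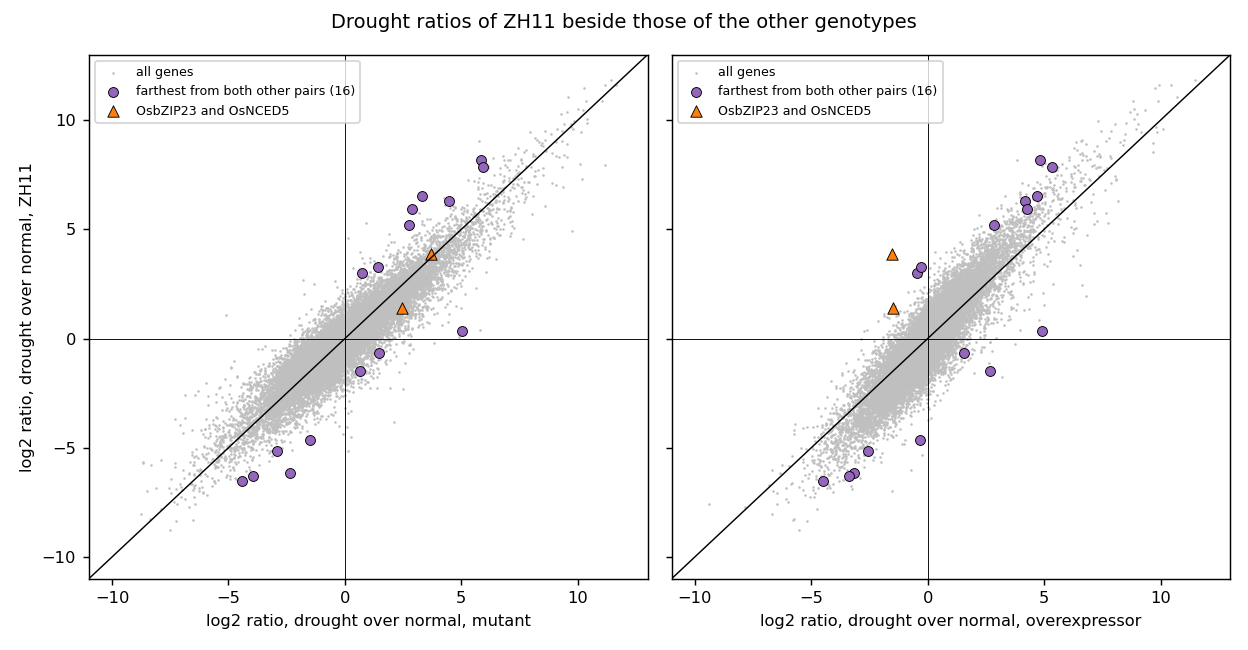
Log2 ratio of drought over normal in ZH11 (vertical axis) against that in the mutant (left panel, horizontal axis) and in the overexpressor (right panel, horizontal axis) for the 23089 genes, each point 1 gene, with circles for the 16 genes farthest from both other genotypes and triangles for OsbZIP23 and OsNCED5. Most points follow the diagonal, and the Pearson correlations across genes are 0.927 and 0.910.

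A few genes stood apart in ZH11 from both other genotypes. With at least 50 reads required in every pair, 15284 genes were compared, of which 67 had a log2 ratio at least 1 above and 210 at least 1 below both. A ratio can stand apart through its normal level as well as through its drought level. The genes farthest above included LOC_Os03g18850, described as PYR1-like 2 and given before. Its log2 ratios were 6.55 in ZH11, 3.30 in mutant plants and 4.69 in overexpressing plants. In the mutant it had 244 CPM in drought and 24.3 CPM in normal, against 294 CPM and 2.64 CPM in ZH11. LOC_Os05g45100, a UDP-glucosyltransferase, had 41.5 CPM in drought and 0.661 CPM in normal, and its log2 ratio was 5.18, against 2.75 in mutant and 2.83 in overexpressing plants. Its drought and normal levels were 119 and 17.3 CPM in the mutant and 8.94 and 0.829 CPM in the overexpressor. Farthest below was LOC_Os02g14720, a RING/U-box gene, with 8.72 CPM in drought and 6.83 CPM in normal, and a ratio of 0.33 on the log2 scale, against 5.04 in mutant and 4.89 in overexpressing plants. LOC_Os02g03960, described as a G-box binding factor, had 0.171 CPM in drought and 61.2 CPM in normal. Its log2 ratios were -6.52 in ZH11, -4.40 in mutant and -4.48 in overexpressing plants. LOC_Os01g42520, a cell wall protein of the DUF642 type, had 0.684 CPM and 85.2 CPM, with log2 ratios of -6.18, -2.35 and -3.18 in the same order of genotypes. In the mutant LOC_Os01g42520 had 0.561 CPM in drought and only 4.90 CPM in normal, which limits how far its ratio there can fall. In the overexpressor it had 4.34 CPM and 43.5 CPM. With 1 library for each genotype and condition, these differences were not tested.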

How the data were processed

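RNA libraries of ZH11, osbzip23 mutant and OsbZIP23-overexpressing shoots under drought and normal conditions were used; ChIP libraries were not used here. Per the file headers, the authors deposited an FPKM value and a read number for each gene. The deposited read numbers come in steps of 0.5 and were taken here for estimated counts. They were used unrounded for CPM and rounded for scaling factors. Per the submitters' processing notes, TopHat2 2.0.8, Trimmomatic 0.32 and edgeR 3.6.0 were used, without roles; the counting tool, strand setting, genome build and annotation are not given in the sources used here. Reads of neighbouring, antisense or near-identical genes may therefore have been mixed.

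The 56001 lines of each table held 55986 genes after 15 repeated names were summed. TMM factors were computed over the 6 RNA libraries, after edgeR's filter on low counts, with edgeR 4.0.16 in R 4.3.3, and were 0.868 for drought and 1.12 for normal ZH11. Genes with at least 10 reads in either ZH11 library were kept, and log2 ratios used a pseudocount of 0.5 CPM. Folds and their 95% intervals came from the reads without a pseudocount, and a library with 0 reads was set at 3 counts. Python 3.11.15, pandas 2.3.3 and scipy 1.17.1 were used, and the calculation was checked on simulated data. No test was made, since each group is 1 library.

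Genes named are the 15 largest ratios each way among genes averaging at least 20 CPM, the 15 largest CPM differences each way, all members of fixed lists, up to 3 each way from lists built on the authors' descriptions with at least 50 reads, the 8 each way farthest from both other genotypes, the 8 steadiest of the 300 most-read genes, and runs of neighbouring loci. The members and lists were chosen with earlier results of these data known. Lists built on descriptions were cleared of unrelated matches after values were seen, and the small heat shock protein and elongase lists were separated then. Symbols and roles are general knowledge of rice; descriptions are the authors'. Alternatives were TMM over the ZH11 pair or over all genes, DESeq2 1.42.0 size factors, library totals with and without the 4 most-read genes, upper quartile, pseudocounts of 1 and 5 CPM, other read limits and the authors' FPKM. A description of promoter motifs was not run.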

Additional observations from a re-analysis of the deposited data

Results flagged for a closer look

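A few results had opposite directions in ZH11 and in another genotype's drought and normal pair, by at least 2-fold each way for single genes. None of these differences was tested, since each pair is 1 drought and 1 normal library. OsbZIP23 had a log2 ratio of 3.86 in ZH11, with 479 CPM in drought and 32.5 CPM in normal, and -1.54 in the overexpressor, with 457 CPM in drought and 1325 CPM in normal, the level of a line made to overexpress it. LOC_Os02g54760, described as a cyclic nucleotide-gated channel, had -1.47 in ZH11 and 2.70 in the overexpressor. OsNCED5 had 1.41 in ZH11 and -1.50 in the overexpressor. It is also the middle gene of the ABA synthesis list in both genotypes, so the list's median was 1.41 in ZH11 and -1.50 in the overexpressor for the same reason. The median of the 16 measured xyloglucan endotransglucosylase genes was -1.27 in ZH11 and 0.24 in the mutant.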

How the results depend on the processing

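Each setting was changed alone. The numbers of genes 2-fold higher and lower in drought were 5766 and 6827, and stayed within 1.5 times of these except that a pseudocount of 5 CPM left 3660 and 3216, and 10 reads in both libraries left 4330 lower. With library totals without the 4 most-read genes the split was 4597 higher and 8612 lower, against 35.1% of calls higher with all genes in the totals and 45.8% with TMM. The median log2 ratio over all genes, -0.15, became -0.48 with library totals, -0.50 with totals without the 4 most-read genes, 0.11 with the upper quartile, -0.085 with TMM of the ZH11 pair, -0.075 with DESeq2 size factors, -0.19 with TMM over all genes (chosen after seeing the data), -0.077 with a pseudocount of 5 CPM, -0.069 with any read, -0.080 with 50 reads in either library and -0.043 with 10 reads in both. The medians of the expansin and xyloglucan lists were reversed with 10 reads in both libraries, at 0.52 and 0.61. Over the scalings the medians of 10 lists changed sign, those of ABA hydroxylases, clock, oil body, homeobox, C2H2, auxin, jasmonate, proteasome, histone and cyclin genes. Of 181 named genes 9 changed their side of the 2-fold line with library totals, 3 with the upper quartile and 7 with a pseudocount of 5 CPM. With 10 reads in both libraries 144 of the 181 could be given. No replicate could be left out, since each group has 1 library. No paired analysis was possible because each genotype and condition has a single library. Counting depth limits genes near 10 reads most.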

Other observations

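Genes handling foreign or reactive molecules differed within families. Of 61 measured glutathione S-transferases 17 (27.9%) were higher and 26 (42.6%) lower in drought, against 25.0% and 29.6% of all genes. Their higher share was thus near that of all genes. The tau-class gene LOC_Os01g49710 had 89.1 CPM in drought and 0.954 CPM in normal, whereas LOC_Os10g38780 had 0.94 CPM in drought and 112 CPM in normal. Among cytochrome P450 genes, LOC_Os08g39730 had 194 CPM in drought and 0.587 CPM in normal, while LOC_Os11g41710 had 0.256 CPM and 57.6 CPM. In lignin and phenylpropanoid metabolism 8 of 36 measured genes (22.2%) were higher, near the share of all genes, and 14 (38.9%) lower. The acyltransferase-type gene LOC_Os09g37200 had 207 CPM in drought and 0.44 CPM in normal, and the laccase LOC_Os01g63180 no reads in drought and 43.7 CPM in normal. Among oil body and seed storage genes, 5 of 12 (41.7%) were higher and 4 (33.3%) lower, the lower share near that of all genes. The caleosin LOC_Os04g43200, a protein of oil body surfaces in seeds, had 1050 CPM in drought and 0.661 CPM in normal.

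Some genes not given above also had far fewer reads in drought. Whether any of them belongs with the groups above, such as the photosynthesis genes, was not examined. LOC_Os10g37180, described as a single hybrid motif protein, had 0.855 CPM in drought and 589 CPM in normal, 689-fold lower (375 to 1438). LOC_Os03g16050, described as high cyclic electron flow 1, had 2.95 CPM in drought and 501 CPM in normal. LOC_Os07g34570, of thiamine (vitamin B1) synthesis, was lower as well but stayed among the well-read genes, with 1182 CPM in drought and 6702 CPM in normal. LOC_Os01g11160, a cationic amino acid transporter, had 1.07 CPM and 282 CPM.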
